A study of Mus musculus with 4 samples.

Results

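The genes described here encode the acetylcholine receptor of skeletal muscle and the proteins that gather and hold it at the neuromuscular junction: the receptor subunits Chrna1, Chrnb1, Chrnd, Chrne and Chrng, and the organisers and anchors Musk, Rapsn, Dok7, Lrp4 and Colq. They were picked by gene symbol, 10 of 21668 protein-coding genes on the autosomes and the X chromosome in the GENCODE M21 annotation of mm10, and the rule used no measured value. Each was followed in deposited lists of regions enriched for H3K27ac, the acetylation of lysine 27 of histone H3 found at active promoters and enhancers. The lists came from chromatin immunoprecipitation and sequencing of gastrocnemius, a calf muscle, of adult female B6CASTF1/J hybrid mice aged 2 months, carrying no stated treatment or engineered allele. There was 1 group with 2 biological replicates, each a pool of 2 tissue samples sequenced as 2 technical replicate libraries that shared an alignment, so no conditions were compared and no test between groups could be made. The replicate 1 list held 70953 regions, the replicate 2 list 86937 and the replicated list, made by the authors from both, 84452; the read depth behind them was not given in the sources used here.

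At the neuromuscular junction, agrin released by the motor nerve binds Lrp4 on the muscle surface, Lrp4 activates the receptor tyrosine kinase MuSK, and Dok7 is the cytoplasmic adaptor that MuSK needs for full activity. The scaffold protein rapsyn, encoded by Rapsn, then holds the receptors in a dense cluster, and the collagen tail encoded by Colq anchors acetylcholinesterase in the synaptic cleft. The receptor is a pentamer in which the gamma subunit of fetal muscle is exchanged for the epsilon subunit after birth. In adult fibres most of these genes, the fetal Chrng apart, are known to be transcribed mainly by the few nuclei beneath the synapse. The promoter elements classically tied to the genes are an N-box, bound by Ets-family factors such as GABP, and E-boxes, bound by the myogenic factors. The tissue was whole muscle, so a mark on few nuclei and a weak mark on many could not be told apart.

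Promoter sequences are shown first because the region lists set a bare start and marked starts side by side on like-sized stretches. The RefSeq promoter table on GRCm38.p6, the same assembly as mm10, had entries for 6 of the 10 genes, Chrna1, Chrnb1, Chrne, Chrng, Musk and Dok7, with 7 windows of 300 bp because Dok7 had 2. Printed 5′ to 3′ on the strand of each gene are the 250 bases before the starts of Chrna1 (chr2:73580339-73580588, minus strand), Chrne (chr11:70619195-70619444, minus), Chrng (chr1:87205561-87205810, plus) and Musk (chr4:58285712-58285961, plus). Only 130 bases are shown for Chrnb1 (chr11:69795938-69796067, minus), because the last exon of Fgf11 is annotated just before them. Capitals mark the N-box CCGGAA and the E-box CANNTG, each searched on both strands.
Chrna1: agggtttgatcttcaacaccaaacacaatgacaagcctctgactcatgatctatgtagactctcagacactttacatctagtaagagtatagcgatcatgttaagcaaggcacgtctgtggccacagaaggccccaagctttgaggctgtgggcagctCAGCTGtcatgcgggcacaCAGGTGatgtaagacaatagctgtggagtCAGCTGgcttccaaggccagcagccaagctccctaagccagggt
Chrnb1: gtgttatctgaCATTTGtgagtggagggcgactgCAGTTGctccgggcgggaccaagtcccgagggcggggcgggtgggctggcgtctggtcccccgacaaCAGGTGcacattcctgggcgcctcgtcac
Chrne: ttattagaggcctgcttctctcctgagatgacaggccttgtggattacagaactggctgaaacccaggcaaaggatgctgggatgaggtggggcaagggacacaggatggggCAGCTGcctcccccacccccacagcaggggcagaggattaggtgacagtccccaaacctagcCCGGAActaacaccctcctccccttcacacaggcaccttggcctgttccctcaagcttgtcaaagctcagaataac
Chrng: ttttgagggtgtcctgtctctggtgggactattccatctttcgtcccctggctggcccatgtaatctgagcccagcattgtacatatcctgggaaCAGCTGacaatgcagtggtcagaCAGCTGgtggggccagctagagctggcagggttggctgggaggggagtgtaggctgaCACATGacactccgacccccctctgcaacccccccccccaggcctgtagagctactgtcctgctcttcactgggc
Musk: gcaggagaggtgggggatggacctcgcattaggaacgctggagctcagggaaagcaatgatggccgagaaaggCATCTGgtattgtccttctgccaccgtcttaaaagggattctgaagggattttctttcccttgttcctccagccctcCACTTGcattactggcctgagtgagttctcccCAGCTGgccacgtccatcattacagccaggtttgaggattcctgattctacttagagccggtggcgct

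Of the 6 genes with an entry, only Chrne had an N-box between 250 bp before and 50 bp after the start, beginning 76 bp before it, and 19.2% of the 20054 promoter windows of coding genes held one. All 6 genes had an E-box in a window, a motif found in 68.6% of windows. The member counts are of genes and the percentages are of windows, and 1 of the 2 windows of Dok7 had no E-box. Its form CAGCTG, which is part of the E-box count, was found in 4 of the 6 genes (Chrna1, Chrne, Chrng and Musk) against 15.8% of windows. Chrng was the only unmarked gene with an entry, so E-box number could not be compared between marked and unmarked starts. Chrng, at which no H3K27ac region was listed, had 3 with 2 of the form CAGCTG, as had the weakly marked Chrna1. Chrnb1 and Musk had 3 E-boxes each. The GC-box GGGCGG, bound by Sp-family factors, was present in Chrnb1 (4 matches) and in both windows of Dok7 (2 and 4). Over all windows, 47.9% held it. TATAAA was found only in Chrnb1 (12.1% of windows), on the opposite strand and beginning 144 bp before the start. That match and the GC-box match beginning 213 bp before the start lay outside the bases printed for Chrnb1. The MEF2 consensus was in none (2.56%).

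CpG content varied widely between the genes. The 300 bp window of Chrne held 1 CpG and that of Chrng 2, below the lower quartile of 4 over all promoter windows, while Chrna1 had 7, Musk 8, the windows of Dok7 11 and 33, and Chrnb1 17, where the median window had 14. Chrne and Chrng, the subunits exchanged for each other in development, were thus alike in CpG count and unlike in the region lists. Chrng was the only unmarked gene with an entry, so whether CpG content goes with the mark was not tested. A motif match or its absence describes only these letters in this window.

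In the replicated list 8 of the 10 genes had a region within 1 kb of a start, here called a promoter region, where 61.2% of all coding genes had one. The count was 7 in the replicate 1 list (58.9% of all genes), 8 in the replicate 2 list (61.1%) and 7 in both replicate lists together (58.6%). All 5 organisers and anchors and 3 of 5 receptor subunits were marked, and the unmarked ones were Chrnd and Chrng, adjacent genes on chromosome 1. With a −log10 q of at least 5 asked of the region, 7 genes kept one, against 60.6% of all genes, and the gene lost was Chrna1. None of the 8 genes shared its promoter region with the start of another coding gene, as 20.5% of all genes with a promoter region did. In 7 of the 8 the start base itself lay inside a region, as in 92.0% of such genes overall; the exception was Colq, with regions 412 bp and 253 bp from its starts. Those distances were the nearest to the 1 kb limit on its inner side, and the next gene outside it was Chrnd at 3469 bp.

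The acetylated length was the base pairs covered by regions within 5000 bp of a start (10000 at most). For a gene with several starts, the start with the largest value was used. The median acetylated length over the 10 genes was 3394 bp in the replicated list, 2931.5 bp in replicate 1 and 3480 bp in replicate 2. The medians over all coding genes were 1470, 1185 and 1467 bp, and over genes with a promoter region in the replicated list 2569 bp. The organisers and anchors had a median of 4396 bp (2113 to 7126) and the receptor subunits one of 954 bp (0 to 6169). By this measure the order was Dok7, Chrne, Lrp4, Musk, Chrnb1, Rapsn, Colq, Chrna1, Chrnd and Chrng. The 2 replicates gave opposite orders for Dok7 and Lrp4, Musk and Chrnb1, Rapsn and Colq, and Chrne and Musk. In both replicates Chrne lay below Dok7 and Lrp4 and above Chrnb1, and Colq lay above Chrna1. The ranges of the 2 replicate values overlapped for each of these pairs. In the replicated list, by contrast, Chrne stood above Lrp4 (6169 against 5970 bp). Rapsn lay below Musk and Chrnb1 in both replicates. In all 8 marked genes the replicate 1 value was the lower one, as was the replicate 1 median over all coding genes.

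**Figure D1:**
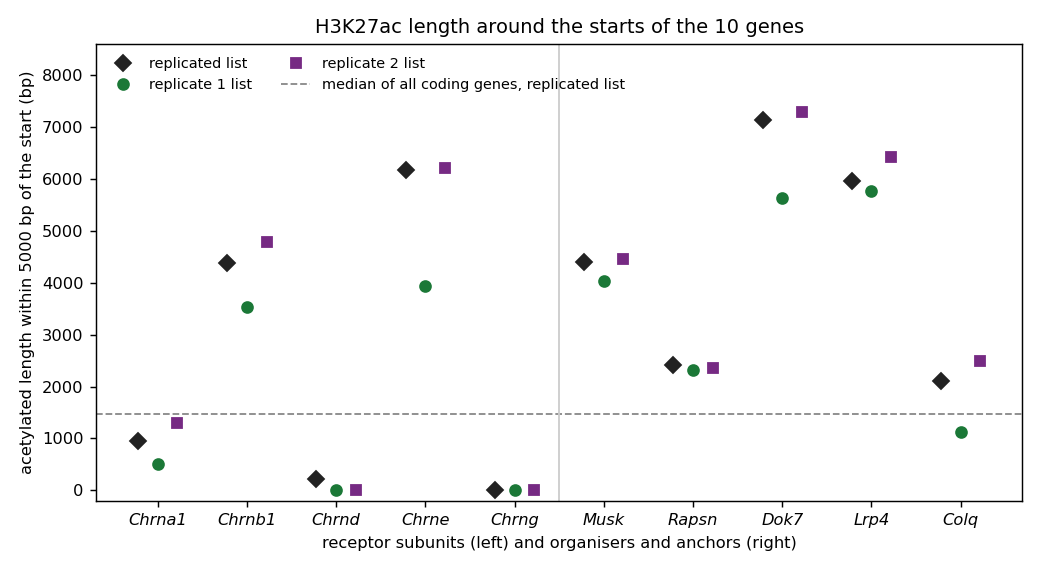
Acetylated length (bp, vertical axis) of each gene in the replicated list (diamonds), the replicate 1 list (circles) and the replicate 2 list (squares); the dashed line is the median of all coding genes in the replicated list, 1470 bp. Chrnd and Chrng sit at or near 0, and Chrne is the highest of the receptor subunits at 6169 bp in the replicated list.

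Among the receptor subunits, Chrnb1, which encodes the beta subunit present in both fetal and adult receptors, had the strongest promoter region. The region (chr11:69794908-69796985) was 2078 bp wide with a signal value, the authors' own score in the peak file, of 41.1 in the replicated list. The best promoter region of Chrnb1 had 35.5 in the replicate 1 list and 43.4 in the replicate 2 list, percentiles 86.7 and 85.7 of promoter regions in their lists. Its acetylated length was 4380 bp in the replicated list, with 3534 in replicate 1 and 4794 in replicate 2, a mean of 4164 ± 891 bp (SD, n = 2). Further regions lay over exons of the gene, 1876 bp wide with signal 10.4 at 2090 bp after the start, and 1051 bp wide with signal 4.0 at 10734 bp, so that 33.3% of the Chrnb1 body was covered. The strongest regions elsewhere in its window, the gene body with 50 kb on each side, were the promoter regions of Zbtb4, a zinc finger gene (chr11:69765152-69768531, 50.3), and Polr2a, the largest subunit of RNA polymerase II (chr11:69757074-69760727, 47.1).

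Chrne, the adult epsilon subunit, was marked widely and with low signal at the start itself. Its acetylated length was 6169 bp in the replicated list, with 3935 in replicate 1 and 6202 in replicate 2 (mean 5068 ± 1603 bp, SD, n = 2), and in bp the 2 replicates differed more for Chrne than for any other of the 10 genes. The region over the start (chr11:70617540-70620116, 2577 bp) had a signal value of 10.04, percentile 28.1 of promoter regions, with 9.23 in replicate 1 and 8.22 in replicate 2. A separate region between genes, chr11:70620948-70623420, had its summit 2733 bp before the start and a signal of 24.7, above that of the start region; the matching regions had 18.2 in replicate 1 and 26.4 in replicate 2. This upstream region, singled out after its values were seen, gave 2473 of the 6169 bp, the start region 2577 bp, and another region (1119 bp, signal 3.43) over the 3′ end of the gene and at the start of 4930544D05Rik the remainder. That last one was absent from replicate 1.

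The window of Chrne was crowded: 43.8% of it was covered, percentile 99.2 of all coding genes, against a median of 5.78%. It held 22 regions, of which 5 lay at starts of other coding genes. The strongest of these 5 lay at Spag7 (chr11:70666078-70670848, 48.5) and at Rnf167 and Slc25a11 (chr11:70645218-70647103, 41.0). Of the 22 regions, 14 were shared with both replicates, where 63.3% of all regions were. A region of 14332 bp (chr11:70649531-70663862, 27.2) ran across Eno3, the muscle enolase, and Pfn1.

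Chrna1, the alpha subunit, which binds acetylcholine, had a weak promoter region in 1 replicate only. The region (chr2:73579909-73580340) was 432 bp wide with a signal of 2.48 and a −log10 q of 3.67, at percentile 0.590 of promoter regions; replicate 2 had a region with signal 2.80 there and replicate 1 none, its nearest region being 4497 bp away. The start base lay within the last few bases of the region, which covered the gene side of it. Stronger regions lay upstream between coding genes and were found in both replicates. The nearer (chr2:73584816-73585900) had its summit 5014 bp before the start, signal 9.14 in the replicated list, with 8.29 in replicate 1 and 8.28 in replicate 2; the start of the antisense transcript Chrna1os is annotated 4512 bp from that of Chrna1. The farther (chr2:73592077-73593783), 12289 bp before the start, had 11.6, 10.4 and 7.46 in the same order. The acetylated length of Chrna1 was 954 bp, with 503 in replicate 1 and 1306 in replicate 2, and part of the nearer upstream region made up what replicate 1 had. The strongest region of the window was at the start of Wipf1, a regulator of actin assembly (chr2:73526321-73530659, 29.2).

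Chrnd, the delta subunit of fetal and adult receptors, and Chrng, the fetal gamma subunit, had no region within 1 kb of a start or inside the gene body in any of the 3 lists. Chrng had 0 acetylated bp in each, as 35.2% of all coding genes had in the replicated list. For Chrnd the replicated list gave 222 bp and both replicate lists 0; all of it was 1 region of 222 bp in an exon of Prss56 (chr1:87186947-87187168, signal 3.09), 3469 bp from the start. Without it the nearest region to Chrnd was far away, 22153 bp in replicate 1 and 22028 bp in replicate 2. For Chrng the nearest was 7068 bp from the start, the promoter region of the translation factor gene Eif4e2 (chr1:87212879-87215386), the strongest in both windows with signal 42.1 in the replicated list, with 32.0 in replicate 1 and 36.3 in replicate 2. A region over an Eif4e2 exon (chr1:87226506-87228557) had 10.7, 8.13 and 12.9. Only these 3 regions fell in either window, and the window of Chrng was 4.43% covered (percentile 43.8 of all genes). The window of Chrnd was 4.37% covered. Over all coding genes the median was 5.78%, with quartiles of 1.10% and 14.5%. The pair therefore lay beside a strongly marked gene, in windows with coverage between these quartiles. Absence from a list says that no region passed the authors' threshold, not that the mark was absent.

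**Figure D2:**
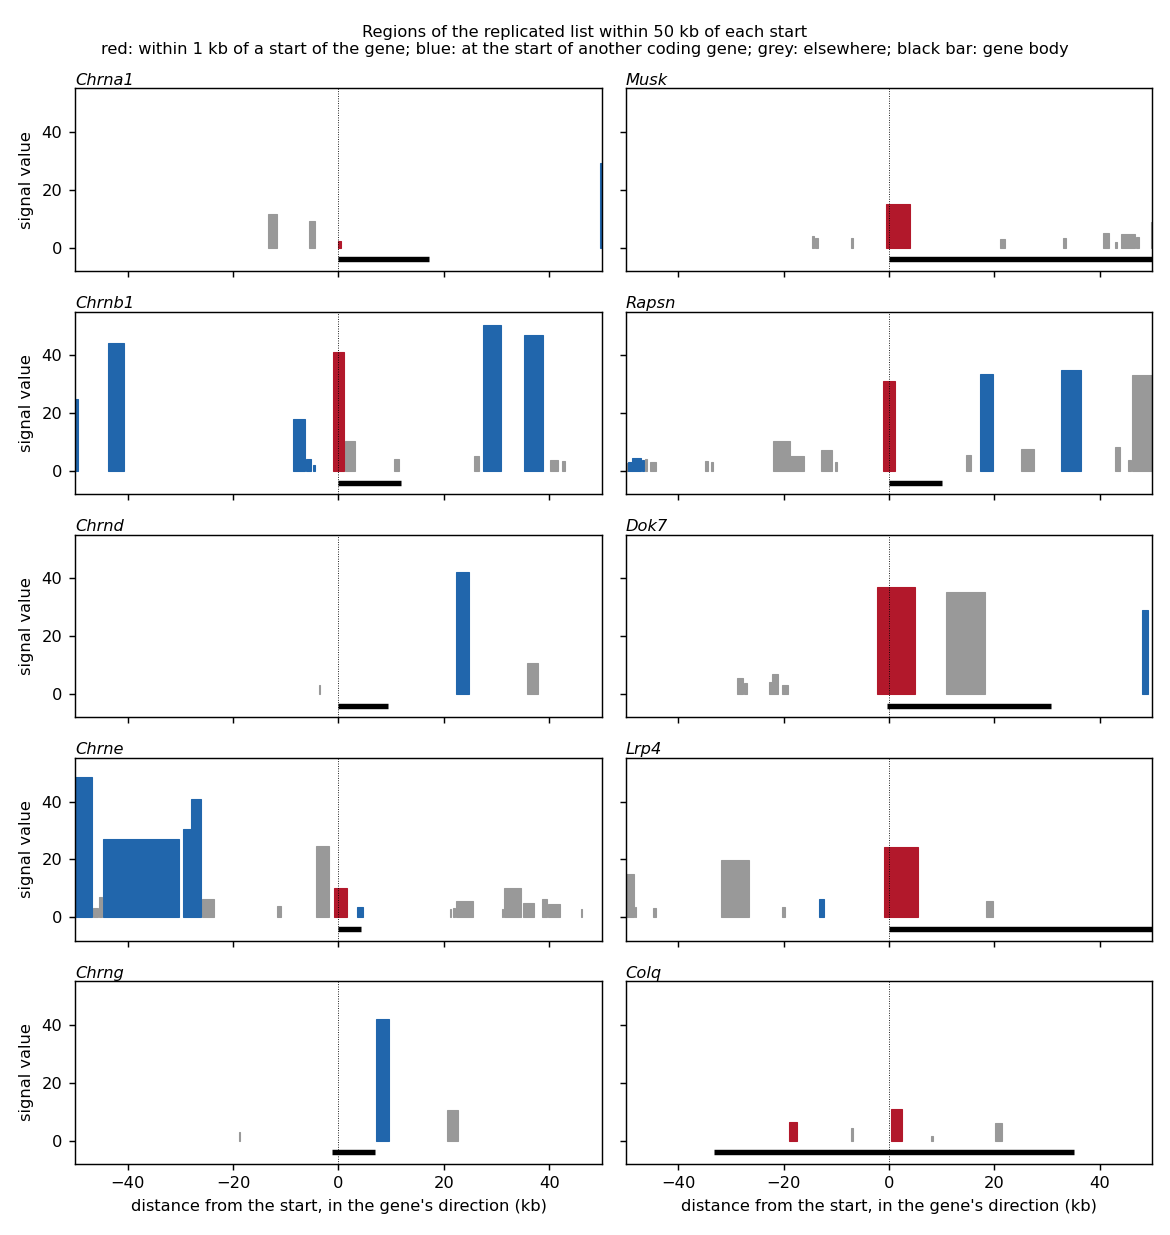
Regions of the replicated list within 50 kb of the start of each gene, drawn in the direction of transcription (horizontal axis, kb), with the signal value as height; red regions lie within 1 kb of a start of the gene, blue ones at the start of another coding gene, grey ones elsewhere, and the black bar is the gene body. No red region is drawn for Chrnd and Chrng, and the grey region before the start of Chrne (24.7) is taller than the red one (10.04).

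Among the organisers, Dok7 had the longest acetylation of the 10 genes in the replicated and replicate 2 lists, and Lrp4 exceeded it in replicate 1. A single region (chr5:35054805-35061930) of 7126 bp covered its 3 annotated starts, with a signal of 37.0 in the replicated list, with 28.6 in replicate 1 and 38.0 in replicate 2. The acetylated length of Dok7 was 7126 bp, with 5624 in replicate 1 and 7282 in replicate 2 (mean 6453 ± 1172 bp, SD, n = 2), percentile 95.7 of all coding genes in the replicated list. A further region inside an intron of Dok7 (chr5:35067855-35075201) was still wider, 7347 bp, with a signal of 35.2 (26.3 in replicate 1 and 37.8 in replicate 2) and its summit 16837 bp after a start. Together they covered 40.3% of the gene body. The intronic region was the strongest elsewhere in the window, above the promoter region of Lrpap1, a chaperone of the LDL receptor family (chr5:35105106-35106280, 29.1). All 8 regions of the Dok7 window were shared with both replicates, where 63.3% of all regions were.

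Musk had a wide promoter region of moderate signal and a string of regions within its 88344 bp body. The promoter region (chr4:58285465-58289860) was 4396 bp wide with signal 15.2 in the replicated list, with 13.2 in replicate 1 and 14.8 in replicate 2, below the medians of promoter regions in these lists (21.8, 17.7 and 23.1). Its acetylated length was 4396 bp, with 4031 in replicate 1 and 4466 in replicate 2 (mean 4248 ± 308 bp, SD, n = 2). The strongest region elsewhere was intronic (chr4:58349805-58352134), 65114 bp after the start, with 14.9, 10.7 in replicate 1 and 16.3 in replicate 2, so it was about as strong as the promoter region. The next lay beyond the gene between genes (chr4:58413050-58414820, 9.91). Of the 14 regions in the Musk window none lay at the start of another coding gene and 9 touched the body. In both replicates 7 of the 14 were shared, where 63.3% of all regions were.

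Lrp4, the agrin receptor, had a region of 6537 bp over its start (chr2:91456541-91463077), with signal 24.4 in the replicated list, with 15.4 in replicate 1 and 28.9 in replicate 2. The acetylated length was 5970 bp, with 5772 in replicate 1 and 6415 in replicate 2 (mean 6094 ± 455 bp, SD, n = 2), long in both. Elsewhere the strongest regions were the promoter region of Ckap5, a microtubule-associated protein gene (chr2:91526308-91527722, 36.8), and one in an intron of 1110051M20Rik (chr2:91425563-91430863, 19.7).

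Rapsn differed from Lrp4 in being narrow and strong. Its promoter region (chr2:91034392-91036799) was 2408 bp wide with signal 31.0 in the replicated list, with 20.2 in replicate 1 and 36.0 in replicate 2. It was the only region touching the body, and the acetylated length was 2408 bp, with 2329 in replicate 1 and 2362 in replicate 2 (mean 2346 ± 23.3 bp, SD, n = 2). The window of Rapsn held 21 regions and was 30.7% covered, percentile 95.0; the strongest elsewhere were the promoter regions of the zinc transporter gene Slc39a13 (chr2:91068250-91072048, 34.8) and the proteasome gene Psmc3 (chr2:91052914-91055308, 33.4).

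Colq had 2 modest promoter regions, 1 on the gene side of each of its coding starts. The first (chr14:31555616-31557728, 2113 bp) had a signal of 10.8 and the second (chr14:31575554-31577130, 1577 bp) one of 6.57; the matching regions had 8.29 and 4.5 in replicate 1 and 13.3 and 6.49 in replicate 2. The first replicate 1 match lay beyond 1 kb of the start, and the highest signal within 1 kb was 4.61 there. The acetylated length was 2113 bp, with 1126 in replicate 1 and 2494 in replicate 2 (mean 1810 ± 967 bp, SD, n = 2), so Colq was above the median of all genes in the replicated and replicate 2 lists and just below it in replicate 1. At the 5′ end of the gene model no region was found within 5000 bp. The strongest regions of the window were promoter regions of other genes, Hacl1 and Btd (chr14:31640273-31641923, 30.5) and Eaf1 and Mettl6 (chr14:31494056-31496857, 27.3).

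Ranked by the signal of the best promoter region in the replicated list, the order was Chrnb1 (41.1), Dok7 (37.0), Rapsn (31.0), Lrp4 (24.4), Musk (15.2), Colq (10.8), Chrne (10.04) and Chrna1 (2.48). This order differs from that by length: in all 3 lists Rapsn stood below Musk and Chrne in length and above both in signal. The 4 highest by signal were above the median of promoter regions in the replicated list, and Lrp4 fell below it in replicate 1 (15.4 against 17.7).

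**Figure D3:**
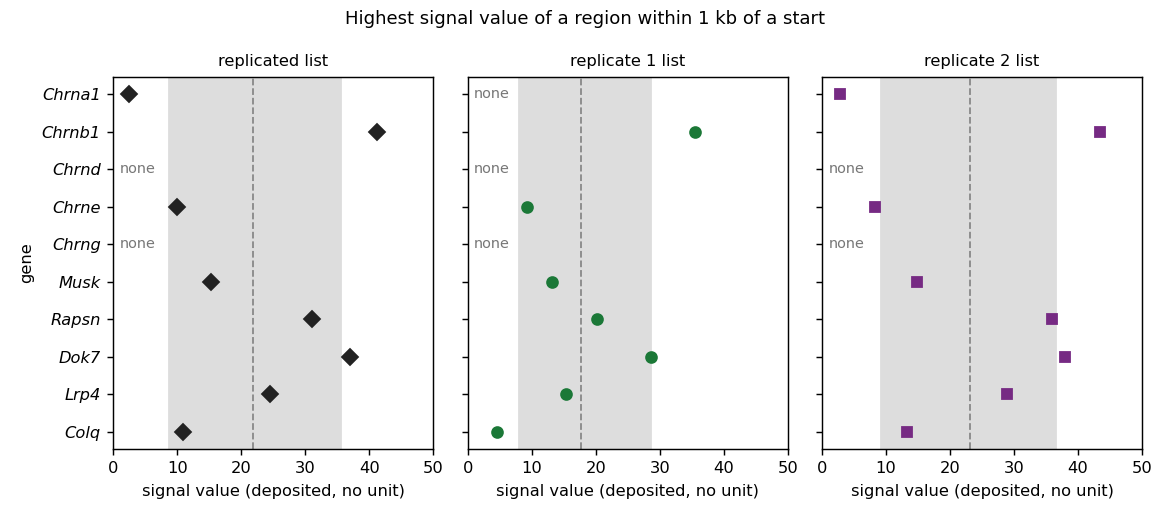
Highest signal value of a region within 1 kb of a start (horizontal axis, deposited score) for each gene in the 3 lists; the dashed line is the median and the grey band the range between the quartiles of all promoter regions of that list. Chrnb1 lies above the band in each list, Chrna1 lies below it where it has a region at all, and "none" marks genes without one.

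To show the sequence under H3K27ac away from starts, the strongest region outside coding promoters was taken in the windows of Chrne, Musk and Dok7, a choice made after values were seen. The 200 bases around the summits of the Chrne upstream region (chr11:70621849-70622048, minus strand), the Musk intronic region (chr4:58350976-58351175, plus) and the Dok7 intronic region (chr5:35073814-35074013, plus) are printed on the strand of the gene, with E-boxes in capitals; none of these stretches held an N-box or an annotated exon.
Chrne upstream: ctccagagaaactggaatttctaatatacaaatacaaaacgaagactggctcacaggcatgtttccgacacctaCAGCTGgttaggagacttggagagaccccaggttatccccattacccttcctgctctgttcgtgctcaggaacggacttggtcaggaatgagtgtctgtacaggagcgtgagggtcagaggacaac
Musk intron: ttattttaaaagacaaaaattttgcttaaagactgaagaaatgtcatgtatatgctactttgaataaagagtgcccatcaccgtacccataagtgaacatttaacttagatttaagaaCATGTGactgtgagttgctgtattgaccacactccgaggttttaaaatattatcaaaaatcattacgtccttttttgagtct
Dok7 intron: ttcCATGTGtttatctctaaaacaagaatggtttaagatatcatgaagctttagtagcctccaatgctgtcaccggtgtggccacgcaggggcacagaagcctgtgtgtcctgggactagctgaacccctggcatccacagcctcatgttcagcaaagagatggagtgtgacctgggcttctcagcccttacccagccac

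Each of the 3 had 1 E-box in this stretch, of the form CAGCTG in the Chrne upstream region alone. Over 500 bp windows centred on summits, 24 of the 26 regions within the gene bodies or 1 kb of them held an E-box, against 91.8% of all 84450 regions on the autosomes and X (2 more lay on the Y). The form CAGCTG was found in 13 of the 26 (30.5% of all regions), the N-box in 2 (11.1%), at the start of Chrne and in the Eif4e2 promoter region beside Chrng, and the MEF2 consensus in 3 (7.59%), all in introns of Musk. These counts are descriptions of a small set.

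The windows of the 10 genes held 109 different regions in the replicated list. By place, 33 lay at the start of a coding gene, 18 over exons, 42 in introns and 16 between genes. The 33 were 30.3% of the window regions, against 18.0% of all regions, and the windows were built around genes. In the replicate lists, 73 of the 109 were shared with both (67%, at least 50% of the shorter region overlapping), against 63.3% of all regions, and 11 with neither. Of the 26 regions in or within 1 kb of the bodies, 18 were shared with both.

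Genes that act with these proteins were examined from lists drawn up by function. All 16 genes of MuSK and agrin signalling were marked at a start, whichever of the 3 lists was used (61.2%, 58.9% and 61.1% of all coding genes), and their median length in the replicated list was 4082 bp (1470 bp over all coding genes and 2569 bp over those with a promoter region). The longest in the replicated list were Abl1, a tyrosine kinase acting downstream of MuSK (6867 bp), Fyn, a Src-family kinase (6337 bp), and Dvl1, a dishevelled protein (5999 bp). Fyn had 3298 bp in replicate 1 and 5678 bp in replicate 2 and was not among the 3 longest of either. Agrn itself, whose nerve isoform is the signal and which muscle also makes, had 4059 bp, with 3061 in replicate 1 and 4070 in replicate 2. No other tissue was examined, so whether the marks on this list are particular to muscle or to the synapse was not tested.

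All 16 genes of the synaptic cleft and postsynaptic scaffold also had a promoter region in every list, against the same 61.2% in the replicated list, with a median of 4829 bp. Lama5, a laminin chain of the basal lamina, reached 9564 bp, Dag1, the dystroglycan that binds it, 9048 bp, and Scn4a, the sodium channel of muscle, 7156 bp. Most of these genes are also used along the whole fibre or in other cells.

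Of 14 genes for transcription factors and neuregulin signalling tied to synaptic expression, 11 had a promoter region, against 61.2% of all genes, with a median length of 3392 bp. Myod1, the myogenic factor (7559 bp), Gabpa, the Ets-family subunit that binds the N-box (7272 bp), and Myog, another myogenic factor (5671 bp), were the longest. The genes without one were Nrg1, the neuregulin ligand, Erbb4, one of its receptors, and Dach2, a transcriptional repressor linked to the denervation response of muscle; the receptor genes Erbb2 (1939 bp) and Erbb3 (3276 bp) had one in all lists.

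Few of the neuronal nicotinic subunits were marked. Of 11 genes, 1 had a promoter region (61.2% of all genes), Chrna9 (1899 bp, with 740 in replicate 1 and 1921 in replicate 2), and the other 10 had 0 acetylated bp in the replicated list, as 35.2% of all genes had, among them Chrna2, Chrna3, Chrna4, Chrna5, Chrna6, Chrna7, Chrnb2 and Chrnb3. Replicate 1 had no promoter region at Chrna9, and replicate 2 also had one at Chrna10 (733 bp). Chrnd and Chrng were thus listed like most neuronal subunits, and Chrnb1 and Chrne were not.

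**Figure D4:**
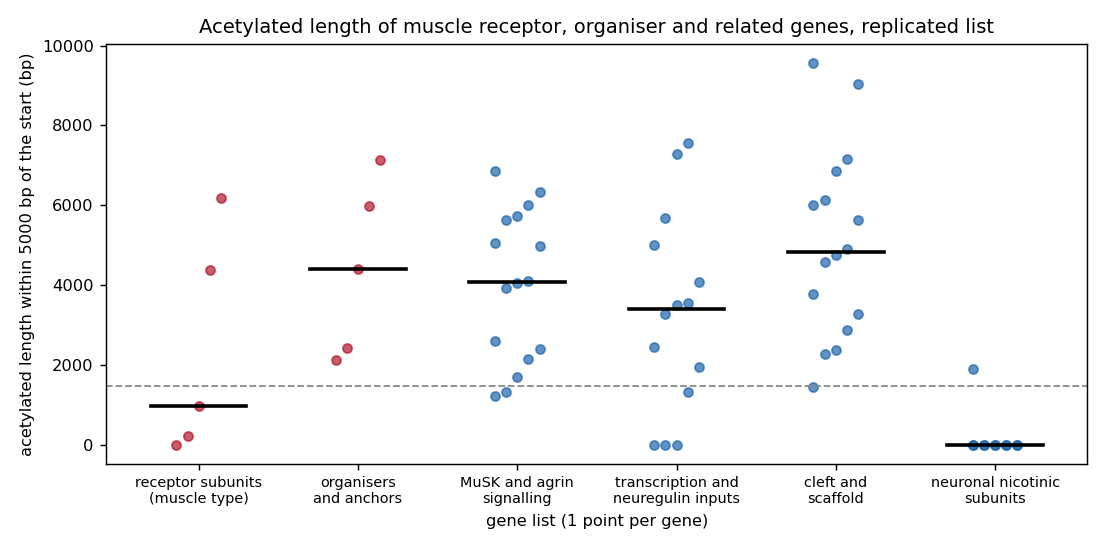
Acetylated length in the replicated list (bp, vertical axis) of each gene, 1 point per gene, for the 10 genes in red and 4 related lists in blue; black bars are list medians and the dashed line is the median of all coding genes. The neuronal nicotinic subunits lie at 0 except Chrna9, and the receptor subunits of muscle spread from 0 to 6169 bp.

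Markers of cell types in the tissue gave the following counts. All 6 fast fibre markers had a promoter region (61.2% of all genes), with a median of 9429.5 bp, the longest being Tnnt3 and Myh4 (10000 bp each) and Mylpf (9463 bp). Of the motor neuron markers, Chat, Slc18a3, Slc5a7 and Mnx1 were at 0 bp in all 3 lists, and Isl1 (687 bp) and Prph (386 bp, in neither replicate) had short ones. Satellite cell markers had promoter regions in 3 of 4 genes, Myf5 (5232 bp), Pax7 (3758 bp) and Cdh15 (1192 bp), and Calcr was at 0 bp. All 4 endothelial markers had one (median 6347.5 bp), led by Cdh5 (8566 bp), Pecam1 (6918 bp) and Kdr (5777 bp). All 4 fibroblast markers also had one (median 8501.5 bp), led by Dcn (9644 bp), Pdgfra (8730 bp) and Col1a1 (8273 bp). The part of these other cells in the acetylation at the 10 genes was not tested.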

How the data were processed

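H3K27ac had been measured in 4 libraries forming 2 biological replicates of 1 group. The authors deposited 4 narrowPeak lists on mm10 (replicate 1, replicate 2, pooled, replicated). The signal value is a score made by the authors. Its scale, the control, the aligner and the peak caller are details not given in the sources used here. Deposited −log10 q values served only as an alternative filter, and the deposited summit offset, another column, placed summits. Regions were matched to GENCODE M21 starts of coding transcripts with Python 3.11.15 and numpy 2.4.6, and figures drawn with matplotlib 3.10.9. Length and motif counts were checked on simulated data. All 10 members are named, with every region at their starts and the 2 strongest others per window; further regions were picked after their values were seen. Of each list, the genes lacking a promoter region (up to 8) and the 3 longest are named. The rule for the members used no measured value, but members and lists were chosen with earlier results of these data known. With 2 replicates in 1 group no test was made. Alternatives tried were the list, promoter distance, window, flank, q, overlap and start definition. The result of 1 list of cell type markers is not reported here.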

Additional observations from a re-analysis of the deposited data

How the results depend on the processing

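The count of genes with a promoter region was 7 or 8 of 10 under every alternative: 7 with replicate 1 alone, with a −log10 q of at least 5 (both without Chrna1) and when only the gene model's 5′ end counted as a start (without Colq), and 8 otherwise. The share over all coding genes was 58.9% in replicate 1, 61.1% in replicate 2 and 60.6% with that q filter. It is not given for the other alternatives, so those counts cannot be set against it. The median acetylated length ran from 2931.5 to 3480 bp with either replicate left out, and was 2452.5 bp within 2000 bp and 3829.5 bp within 10000 bp of the start, windows that differ in length by construction. The regions in the windows numbered 65 with a flank of 25 kb and 214 with 100 kb. The percentage shared with both replicates fell to 46.8 when 50% of both regions had to overlap and was 75.3 among regions with a −log10 q of at least 5. The N-box count was 1 of the 6 genes with an entry, against 19.2% of promoter windows. It was also 1 from 500 bp before to 100 bp after the start, where 26.2% of windows held one. No paired analysis was possible because there was 1 group. With 2 replicates and no read counts, a region missing from a list sets no upper limit on the mark.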
